A study of Mus musculus with 40 samples.

Results

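Clusters of neighbouring CTCF sites were chains of CTCF peaks in which each summit, the point of strongest signal within a peak, lay within 20000 bp of the next summit on the same chromosome. A chain held at least 3 summits. Of the 25307 CTCF peaks in the series, 25280 lay on the 19 autosomes or chromosome X, and 7987 of these fell into 2121 chains. A further 6578 summits formed pairs, and 10715 were isolated, with no other CTCF summit within 20000 bp. Chain summits were 31.6% of the total and isolated summits 42.4%. The chains were chosen by the positions of CTCF summits, so their span, spacing and strength are given as a description. The lists of SMARCA5, PU.1 and C/EBPb played no part in that choice.

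The material was primary mouse bone marrow-derived macrophages (BMDMs). Wild-type cells came from Csf1r-Cre mice and knockout cells, labelled Smarca5-/-, from Smarca5lox/lox Csf1r-Cre mice. Both genotypes carried Csf1r-Cre, a Cre driven by a gene of the macrophage lineage, and both were given 4-hydroxytamoxifen daily during differentiation. Chromatin immunoprecipitation of CTCF, of PU.1 and of C/EBPb used untreated cells, with 2 wild-type and 2 knockout libraries each. The 8 SMARCA5 libraries followed micrococcal nuclease digestion, and each genotype was taken untreated or 2 h after lipopolysaccharide at 10 ng/ml. Each protein is represented by 1 consensus peak list on mm39 in which no peak is tied to a library. No comparison of genotypes or treatments was therefore made, and which genotypes entered each list is not stated. The depth of the libraries is unknown.

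CTCF is a zinc-finger protein that binds a long DNA motif and stalls the cohesin ring as it extrudes chromatin loops. Its sites mark loop anchors, insulators and domain borders, and several sites often stand near each other at such places. SMARCA5, also called SNF2H, is the ATPase of the ISWI remodelling complexes, which slide nucleosomes and set their spacing, and it is known for its role at CTCF sites. The transcription factors PU.1 and C/EBPb occupy enhancers of macrophages.

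Most chains were short, and their length grew with the number of summits at a nearly constant spacing. There were 1241 chains of 3 summits, 58.5% of all, 497 of 4 and 206 of 5. A total of 177 chains held 6 or more, and the highest number was 13. The median span, from the start of the first peak to the end of the last, was 23938 bp, with quartiles of 16641 and 32875 bp. It was 19210 bp for 3 summits, 28476 bp for 4, 37739 bp for 5 and 46827 bp for 6. All chains together covered 56.0 Mb, which was 2.19% of the sequence spanned by the lists.

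**Figure D1:**
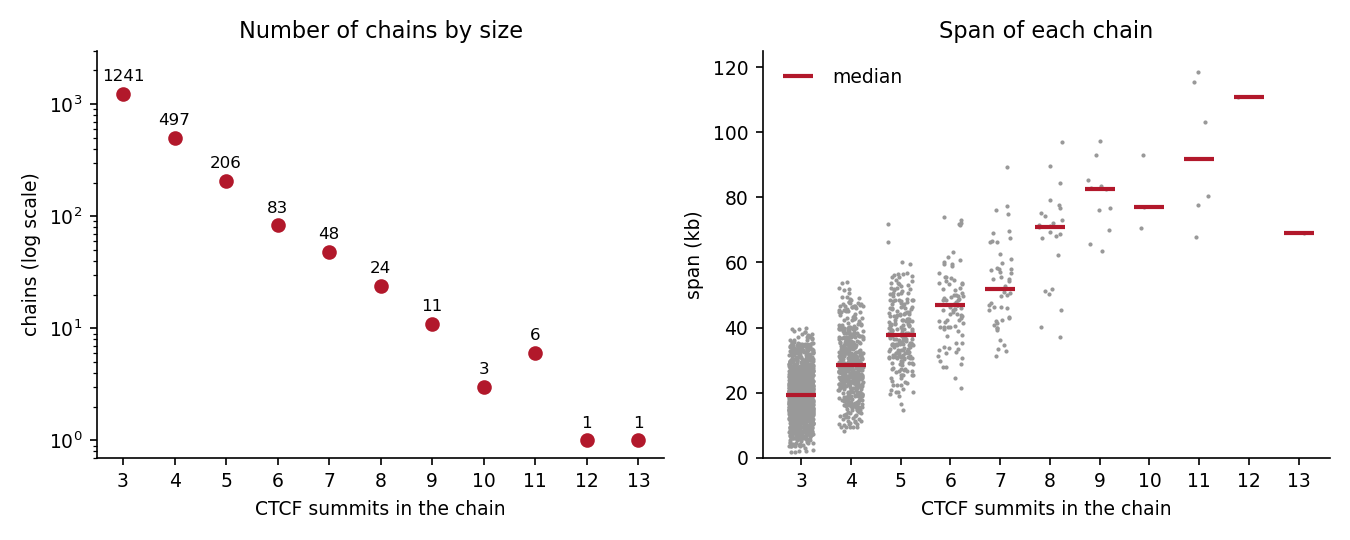
Left, the number of chains (points, log axis) against the number of CTCF summits in the chain. Right, the span of each chain in kb (grey points, spread sideways for legibility) with the median of each size (red bars). Chains of 3 were the most frequent, 1241 of 2121, and the median span went from 19210 bp for 3 summits to 46827 bp for 6.

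Neighbouring summits within chains were a median of 8875.5 bp apart, with quartiles of 5050.5 and 13876.5 bp. The median gap was 9076 bp in chains of 3 and 8430 bp in chains of 6 or more, and in pairs it was 9148 bp. Gaps under 2000 bp made up 9.46% of all gaps and occurred in 511 chains. Only 74 chains, 3.49%, had every gap under 5000 bp. Spacing within a chain was uneven. The largest gap was a median of 2.71 times the smallest, with quartiles of 1.57 and 5.62. At the linking distance itself there was no break: 364 gaps between CTCF summits measured 19000 to 20000 bp and 314 measured 20000 to 21000 bp. The largest gap that joined 2 summits was 19998 bp, and the smallest that kept them apart was 20004 bp.

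The chain with the most summits lay on chromosome 19 from 45001062 to 45070145 and held 13 CTCF peaks in 69084 bp. Fold enrichment, the ratio of signal over local background that the authors deposited for each peak, was 6.0, 10.3, 8.31, 8.81, 5.86, 9.65, 10.2, 15.6, 14.4, 11.1, 7.82, 5.34 and 8.82 in order along the chromosome. The highest values, 15.6 and 14.4, stood side by side in the inner part of the chain. Gaps ranged from 759 to 12855 bp. SMARCA5 peaks touched 6 of the 13 CTCF peaks. The strongest CTCF peak of the chain, at 15.6, overlapped none of the other proteins, while the peaks at 10.2 and 11.1 overlapped both SMARCA5 and PU.1.

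A chain of 12 summits on chromosome 8 from 85629537 to 85740198 held the most PU.1 peaks of any chain, 14, beside 8 SMARCA5 and 6 C/EBPb peaks. Its CTCF fold enrichments were 20.8, 9.44, 16.7, 17.6, 7.16, 13.4, 10.3, 11.9, 13.8, 22.1, 13.5 and 13.2. The 2 strongest, at 20.8 and 22.1, were also the 2 that overlapped PU.1, and both overlapped SMARCA5. A SMARCA5 peak of 10070 bp covered the seventh and eighth CTCF peaks, which were 1213 bp apart. The CTCF peaks from the second to the sixth overlapped none of the other proteins.

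The longest chain, on chromosome 17 from 27290695 to 27409255, held 11 CTCF peaks in 118561 bp, and 2 of them overlapped SMARCA5. A chain on chromosome 14 from 54791897 to 54907273 and another on chromosome 7 from 16582516 to 16685554 also had 11 summits, of which 5 and 3 overlapped SMARCA5. These long chains differed in what they held. The chromosome 17 chain had 11 PU.1 peaks in its span, and 4 of its CTCF peaks overlapped PU.1. The chromosome 7 chain had 6 PU.1 peaks, and no CTCF peak overlapped them.

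The tightest chains of 4 or more summits had a mean gap of 2581 bp on chromosome 2 from 93243950 to 93252097, 2987 bp on chromosome 6 from 128776504 to 128785840, and 3016 bp on chromosome 6 from 91254557 to 91264002. Their content differed. The last of them held no peak of the other proteins, and its CTCF fold enrichments were 9.58, 8.66, 6.97 and 11.7. The first held a PU.1 peak and no SMARCA5. In the chain from 128776504, fold enrichment fell along the chromosome from 13.9 through 10.9 and 9.00 to 6.12, and the 3 stronger CTCF peaks overlapped SMARCA5.

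The 3 chains of 4 or more summits with the highest weakest summit were other chains than these. Their wider mean gaps follow from the choice of the tightest chains and say nothing about strength and spacing. The chain of 4 whose weakest summit was highest, on chromosome 2 from 158182077 to 158222093, had fold enrichments from 18.8 to 20.8, with gaps of 7736, 13489 and 18319 bp. On chromosome 12 from 8356494 to 8377227, 4 summits at 15.6, 21.1, 17.4 and 18.6 had nearly equal gaps of 6598, 6902 and 6738 bp. SMARCA5 overlapped 3 of these 4 peaks, and the span held neither PU.1 nor C/EBPb. On chromosome 9 from 63994787 to 64046587, 4 summits between 15.9 and 18.3 overlapped SMARCA5 in 3 cases.

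**Figure D2:**
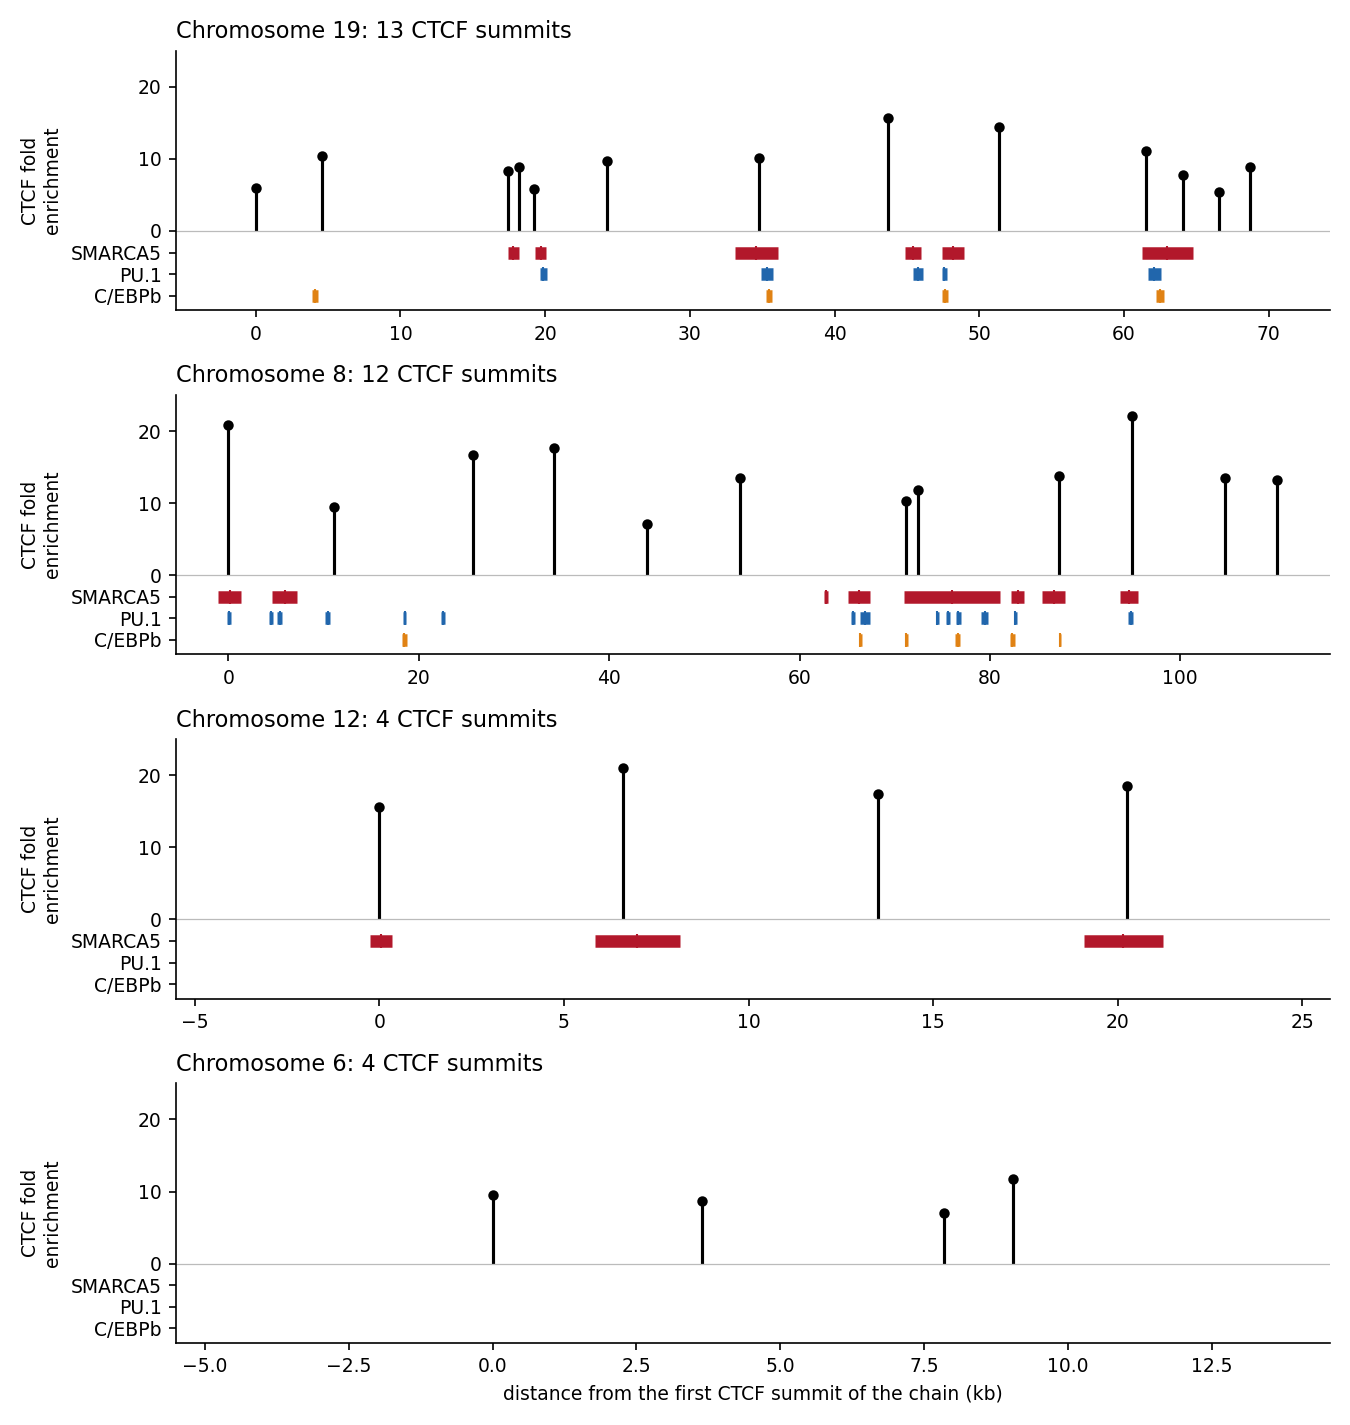
Maps of 4 chains. Stems show each CTCF summit at its distance in kb from the first summit of the chain, with the height giving fold enrichment, and bars below show peaks of SMARCA5 (red), PU.1 (blue) and C/EBPb (orange). The chains on chromosomes 19 and 8 held 13 and 12 CTCF summits, the chain on chromosome 12 had gaps of 6598 to 6902 bp, and the chain on chromosome 6 held no peak of the other proteins.

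The highest count of SMARCA5 peaks in a chain was 9, reached in 3 chains. They lay on chromosome 10 from 128354529 to 128426650, chromosome 6 from 72332260 to 72417475 and chromosome 7 from 25379352 to 25455942. SMARCA5 peaks covered 17.6%, 20.8% and 36.6% of these spans. Their CTCF peaks overlapped SMARCA5 in 6 of 8, 5 of 9 and 6 of 8 cases, so each also held CTCF peaks outside it. The chain on chromosome 17 from 28423304 to 28494120 held 11 PU.1 peaks, and 4 of its 8 CTCF peaks overlapped PU.1.

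Whether chain summits were stronger or weaker than isolated ones depended on the measure. The median fold enrichment was 11.1 in chains and 11.9 at isolated summits, and it was lower in chains on 18 of 20 chromosomes. The deposited -log10 q, the significance of the peak, had a median of 57.8 in chains and 47.1 at isolated summits, and was higher in chains on 20 of 20 chromosomes. Median widths were alike, 401 and 402 bp. Within chains, median fold enrichment was lower at summits with a very close neighbour. Chain summits with another CTCF summit under 5000 bp away had a median of 9.44, against 12.5 for the other chain summits, which was above the isolated value. The median -log10 q of these groups was 57.6 and 58.2.

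The change with distance was a step at 5000 bp and not a slope. Over all CTCF summits, median fold enrichment was 9.49 with the nearest neighbour at 4000 to 4500 bp, 9.90 at 4500 to 5000 bp, 11.8 at 5000 to 5500 bp and 12.2 at 5500 to 6000 bp. It stayed between 9.36 and 9.90 in all 6 groups below 5000 bp and between 11.8 and 12.7 in the 7 groups from there to 20000 bp. The median -log10 q across the same 13 groups lay between 53.3 and 59.6 with no step. Pairs showed the same pair of levels, 9.71 below 5000 bp and 12.5 from there on. Fold enrichment is a ratio over a background taken near the peak, and the part of the neighbouring peak in that background was not tested. Beyond 20000 bp both measures were lower the farther the nearest neighbour was, and summits more than 100000 bp from any other had medians of 11.4 and 38.6.

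**Figure D3:**
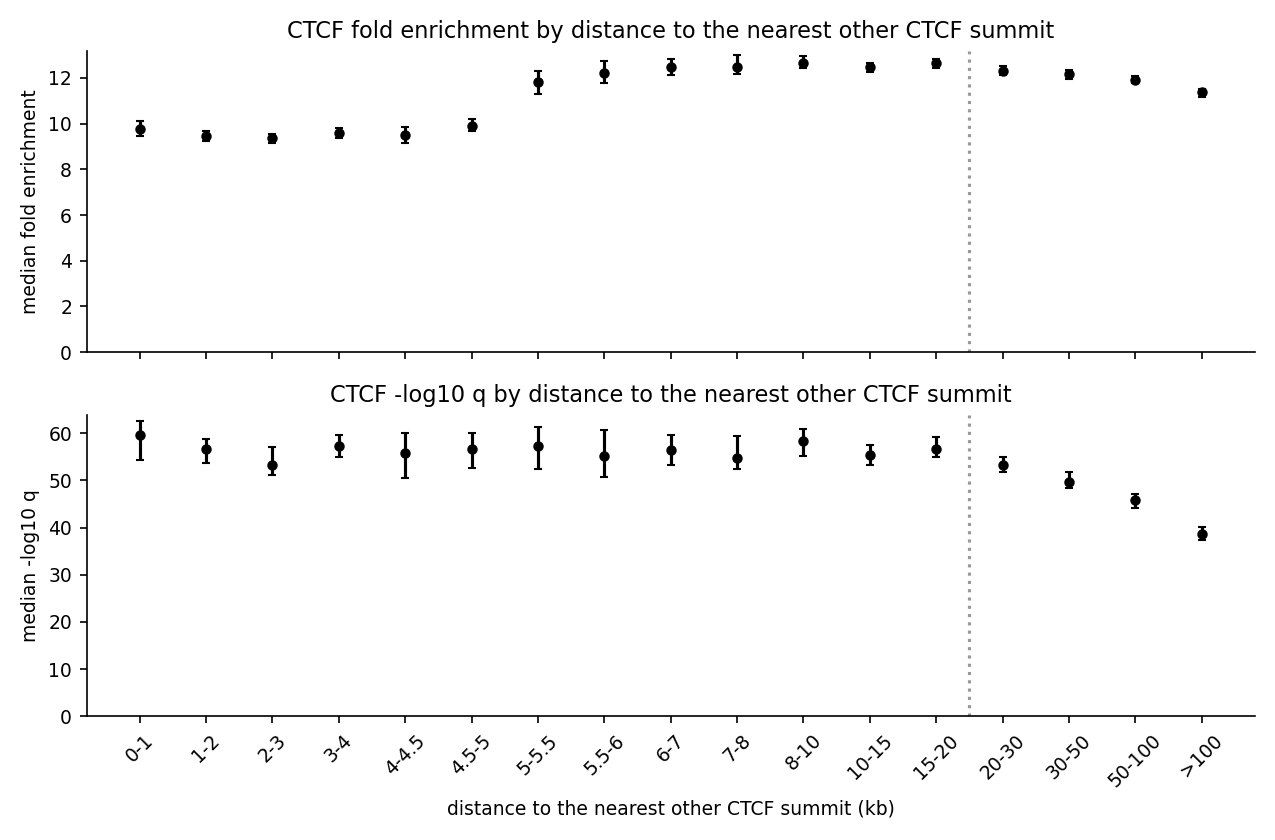
Median fold enrichment (top) and median -log10 q (bottom) of CTCF peaks by distance to the nearest other CTCF summit in kb, with order-statistic 95% intervals of the median. The dotted line marks 20 kb, beyond which summits were isolated. Fold enrichment went from 9.90 at 4.5 to 5 kb to 11.8 at 5 to 5.5 kb, while -log10 q was 56.7 and 57.2.

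Chains held summits of unlike strength, and no sets of unlinked summits of like number were taken for comparison. More summits give a wider range and more chances of a strong one. The ratios and shares of chains given here therefore do not set chains apart. The strongest summit of a chain had a median fold enrichment of 15.4 and the weakest 7.97, and their ratio was a median of 1.83, from 1.67 in chains of 3 to 2.35 in chains of 6. The strongest exceeded the next by a median of 1.21 times. Of all chains, 29.6% held a summit in the upper 10% of the CTCF list by fold enrichment, and 9.40% of chain summits were in that class, against 10.4% of isolated summits. By -log10 q the order turned: the highest of 5 equal groups held 1897 of 7987 chain summits and 1781 of 10715 isolated ones. The highest of 5 equal groups by fold enrichment held 1498 and 2226 of them. All summits were in the lower 50% of the list in 278 chains and in the upper 50% in 183. Taken over all gaps, neighbours were hardly related in strength. Over 5866 neighbouring pairs, Spearman's rho was 0.0402 for fold enrichment and 0.0530 for -log10 q. These pairs come from the same libraries and can share a background. At closer gaps the 2 measures differed in sign. Under 2000 bp rho was -0.163 for fold enrichment and 0.203 for -log10 q. At gaps of 2000 to 5000 bp it was -0.276 for fold enrichment and 0.150 for -log10 q.

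By fold enrichment, the strongest summit stood at an end of the chain in 62.7% of chains, where even placement would give 57.1%. The share was 70.2% in chains of 3, 55.9% in chains of 4 and 55.3% in chains of 5, beside even shares of 66.7%, 50% and 40%. In chains of 5, median fold enrichment was 12.1, 10.6, 9.88, 10.8 and 11.7 from the first to the last place. By -log10 q the excess over even placement was absent over all chains. The strongest summit by that measure stood at an end in 56.6% of chains, a difference of -0.475 points from even placement (-2.59 to 1.62). Among the 1008 chains without a gap under 5000 bp, the share by fold enrichment was 59.4% against an even share of 60.3%. By fold enrichment, 680 chains were strongest at the first summit and 649 at the last.

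SMARCA5 overlapped CTCF peaks in chains more often than isolated ones. It touched 3506 of 7987 chain peaks, 43.9% (Wilson 95% interval 42.8 to 44.99), and 3831 of 10715 isolated peaks, 35.8% (34.9 to 36.7), and the share among all CTCF peaks was 39.9%. The difference was 8.14 percentage points (95% interval 6.49 to 9.79, linear model with errors robust within 528 blocks of 5 Mb). Chains were higher on 20 of 20 chromosomes, by 0.559 points on chromosome 13 up to 15.2 points on chromosome 12. The lowest shares of both kinds were on chromosome X, at 27.6% and 21.3%. Peaks in pairs stood between, at 41.8%. The size of the chain made little difference: the share was 43.3% in chains of 3, 44.4% in chains of 4, 43.6% in chains of 5 and 45.1% in longer ones.

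The size and direction of this difference depended on how CTCF strength was treated. With -log10 q alone as a covariate, chains exceeded isolated peaks by 5.04 points (3.42 to 6.65), and with fold enrichment alone by 9.86 points (8.22 to 11.5). With both in the model the direction turned, to -4.14 points (-6.01 to -2.26), and to -1.88 points (-3.66 to -0.0988) when chain summits with a neighbour under 5000 bp were also left out. The logarithms of these measures had a Pearson correlation of 0.890 over the 25280 CTCF peaks, which share libraries and background. When classes were built anew from the upper 50% of the CTCF list by fold enrichment, chains exceeded isolated peaks by 2.81 points. The interval held 0 (-0.561 to 6.18). These were other classes, as a peak whose weaker neighbours were left out could become isolated. The excess of chains is thus a statement about peaks as they occur and not about peaks of equal fold enrichment and equal -log10 q.

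**Figure D4:**
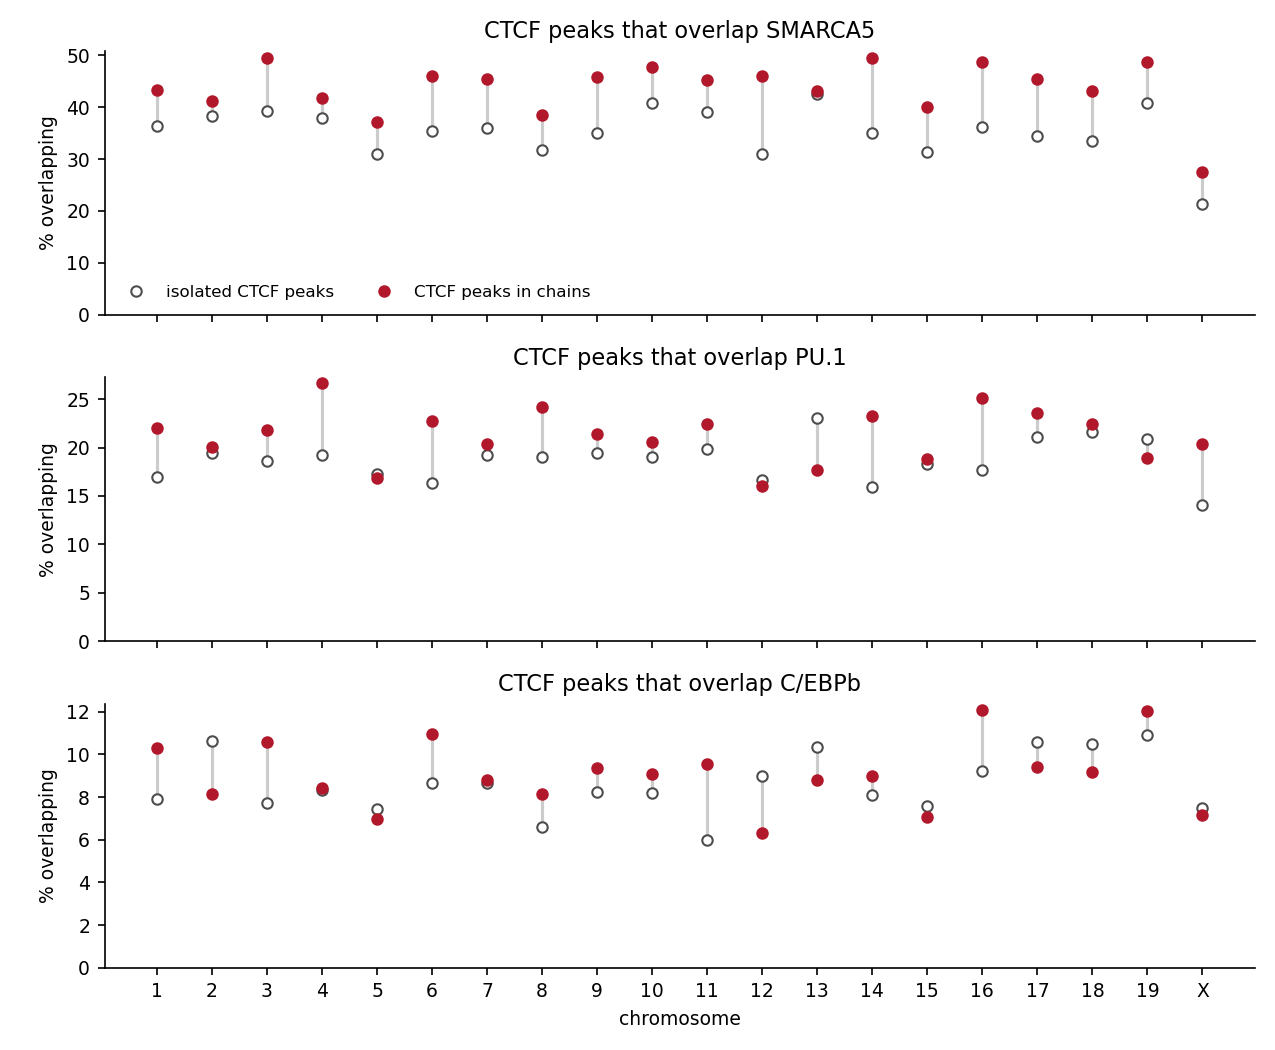
Share of CTCF peaks that overlap SMARCA5 (top), PU.1 (middle) and C/EBPb (bottom) on each chromosome, for peaks in chains (red) and isolated peaks (open). SMARCA5 was higher in chains on 20 of 20 chromosomes, PU.1 on 16 and C/EBPb on 12.

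The excess of SMARCA5 in chains was seen at weaker CTCF peaks and at CTCF peaks without PU.1 or C/EBPb. CTCF peaks were split into 5 equal groups by -log10 q. In the lowest group, SMARCA5 met 30.6% of chain peaks and 22.1% of isolated ones, and in the highest 61.4% and 63.2%. From the lowest group to the highest, chain minus isolated was 8.44, 8.44, 7.77, 2.60 and -1.86 points, so it was already small in the fourth. It was 8.18 points (6.36 to 9.999) in the lower 4 groups together and -1.86 points (-4.98 to 1.254) in the highest. These effects differed by -10.04 points (-13.5 to -6.57). By fold enrichment they differed by -10.99 points (-14.8 to -7.21).

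A like contrast was seen with the factors, though this split and the split by strength pick partly the same peaks. PU.1 overlapped 36.3% of chain peaks and 37.1% of isolated peaks in the highest group by -log10 q. In the lowest group the shares were 16.3% and 12.9%. At CTCF peaks with neither PU.1 nor C/EBPb, SMARCA5 overlapped 35.4% of 5998 chain peaks and 25.9% of 8360 isolated peaks. With PU.1 but not C/EBPb the shares were 66.8% and 67.2%, and with both factors 82.0% and 85.0%. Chain minus isolated was 9.53 points (7.78 to 11.3) without a factor and -1.30 points (-4.22 to 1.61) with PU.1 or C/EBPb, and the test of the difference between these effects gave -10.8 points (-14.1 to -7.55).

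The share was highest at summits with a very close neighbour. SMARCA5 overlapped 61.0% of chain peaks with a neighbour under 2000 bp away (58.0 to 63.8), 42.1% at 2000 to 5000 bp, 40.3% at 5000 to 10000 bp and 41.6% at 10000 to 20000 bp. Pairs showed nearly the same levels, so this was not particular to chains. SMARCA5 overlapped 49.4% of peaks in pairs under 5000 bp apart and 39.3% in wider pairs. In chains the shares were 49.8% with a neighbour under 5000 bp away and 40.9% for the others. Without chain summits that had a neighbour under 5000 bp away, the difference from isolated peaks was 5.17 points (3.46 to 6.88). Among isolated peaks the share was 39.97% with the nearest summit at 20000 to 30000 bp and 26.1% beyond 100000 bp.

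SMARCA5 was also more frequent around chains than around isolated summits. At 10000 bp outward from the end of a chain, 9.74% of positions lay inside a SMARCA5 peak, against 6.20% at the same distance from isolated summits. At 50000 bp the values were 10.2% and 7.78%. The outward side was free of CTCF summits only to 20000 bp, and the median distance from a chain to the next CTCF summit was 49873 bp, so many of the farther positions lay beyond another CTCF summit. At the summits themselves they were 42.0% and 34.7%. The gap between the classes was thus 7.31 points at the summit and 2.42 to 3.76 points at the sampled distances from 4000 to 50000 bp. As a proportion of the isolated value, however, the excess was larger at each of these distances than at the summit. Inward from the end summit, toward the other CTCF summits, 14.6% of positions at 10000 bp lay inside SMARCA5. Within blocks of 5 Mb, which compares chains with isolated summits of the same region, the difference in overlap was 7.84 points (6.15 to 9.53).

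**Figure D5:**
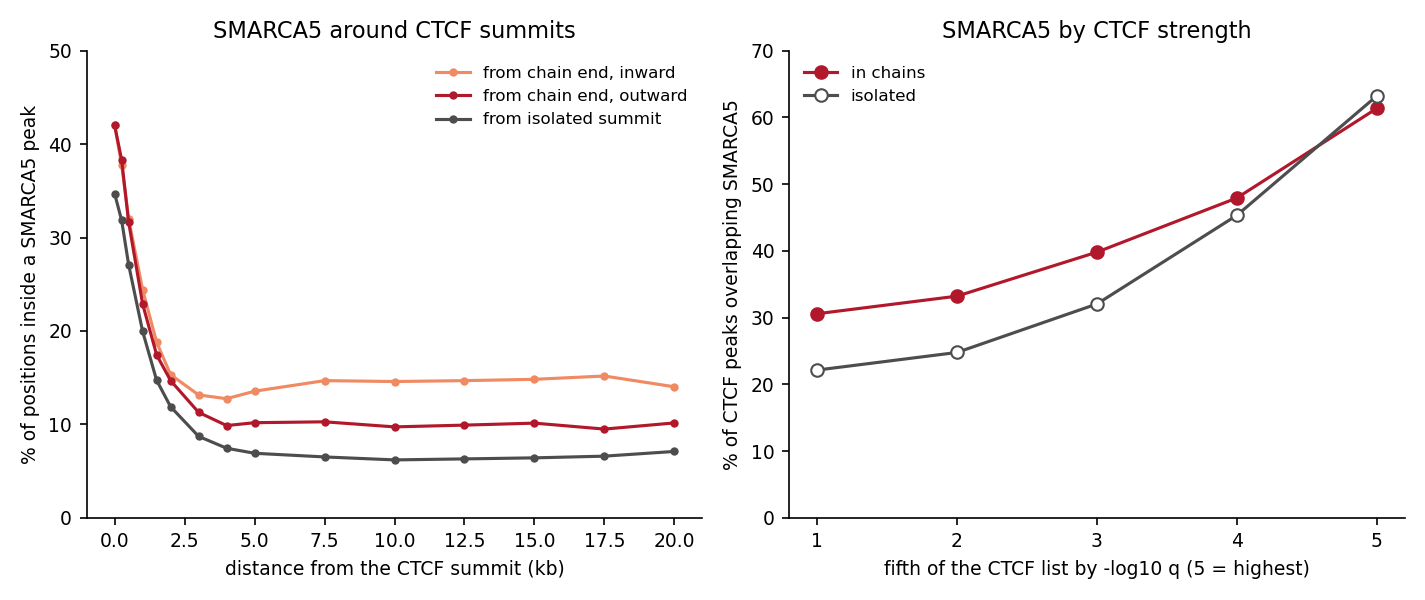
Left, how often a position lay inside SMARCA5 (percent) by distance in kb from the end summits of chains, outward (red) and inward (orange), and from isolated summits (grey). Right, the share of CTCF peaks that overlap SMARCA5 in 5 equal groups of the CTCF list by -log10 q, in chains (red) and isolated (open). Outward values stayed above isolated ones, at 9.74% against 6.20% at 10 kb, and the classes met in the highest strength group at 61.4% and 63.2%.

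Within a chain, SMARCA5 went with the stronger CTCF peak. The strongest summit by fold enrichment overlapped SMARCA5 in 51.2% of chains and the weakest in 38.7%. In 586 chains the strongest alone of these 2 overlapped it, and in 319 the weakest alone. By -log10 q the counts were 698 and 236. Place in the chain mattered less, with 43.4% of end summits (41.9 to 44.9) and 44.4% of inner summits (42.8 to 46.0).

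Neighbouring CTCF peaks tended to be alike in SMARCA5. In 60.8% of 5866 neighbouring pairs either both or neither overlapped it, where the rate of SMARCA5 alone would give 50.7%. In pairs under 2000 bp apart 92.1% were alike, and in 53.5% the same SMARCA5 peak touched both. At 2000 to 5000 bp 63.9% were alike, and at 15000 to 20000 bp 55.9%, beside 50.9% from the rate alone at each of these distances. Without neighbours under 1 SMARCA5 peak the excess over the rate was 5.85 points, against 10.1 over all. Of 1241 chains of 3 summits, 316 had SMARCA5 at none of them and 164 at all, which was 25.5% and 13.2% where independent summits at the same rate would give 18.2% and 8.12%.

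Even so, SMARCA5 seldom covered a chain as a whole, and most of its peaks are too short to do so. The median width in its list was 2553 bp, and the median span of chains was 23938 bp. All summits lay under the same SMARCA5 peak in 12 chains, 0.566%, and neighbouring summits shared a SMARCA5 peak in 371 chains, 17.5%. Of the 3098 SMARCA5 peaks on chain summits, 383 touched 2 or more of them and 24 touched 3 or more. Those on 2 or more had a median width of 3519 bp, against 2328 bp for those on 1. In the middle of gaps of 5000 to 10000 bp, 10.7% of positions were inside SMARCA5 (9.40 to 12.2), beside 8.01% at the same distances from isolated summits. In gaps of 1000 to 2000 bp the midpoint was inside in 47.9% of cases (43.0 to 52.9) against 23.8%. A midpoint has a CTCF summit at that distance on both sides, and a position beside an isolated summit on only 1. The shares are therefore not like for like, and an excess over 2 flanking summits was not tested.

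PU.1 showed a smaller difference of the same direction. It overlapped 1708 chain peaks, 21.4% (20.5 to 22.3), and 2003 isolated peaks, 18.7% (18.0 to 19.4), a difference of 2.69 points (1.40 to 3.98). The share was 20.1% in pairs and 19.9% among all CTCF peaks. Chains were higher than isolated peaks on 16 of 20 chromosomes. With -log10 q as a covariate the difference was 0.768 points (-0.492 to 2.03), and with both measures of strength it turned to -2.41 points (-3.78 to -1.04). It also held 0 within its interval for chains linked at 10000 bp, at 1.31 points (-0.294 to 2.92). Among chain peaks PU.1 overlapped 21.1% with a neighbour under 2000 bp away (18.8 to 23.6) and 22.4% at 10000 to 20000 bp (20.8 to 24.1). Over all CTCF peaks the share was 23.4% under 1000 bp and 19.8% at 1000 to 2000 bp. Neighbours were alike in PU.1 in 66.8% of pairs, and the rate alone would give 66.5%. The strongest summit of a chain by fold enrichment met PU.1 in 29.3% of chains and the weakest in 16.4%.

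C/EBPb could not be told apart between the classes over all peaks. It overlapped 720 chain peaks, 9.01%, and 913 isolated peaks, 8.52%, a difference of 0.494 points whose interval held 0 (-0.353 to 1.34). The share was 9.24% in pairs and 8.86% among all CTCF peaks. Chains were higher than isolated peaks on 12 of 20 chromosomes. The direction depended on the linking distance. For chains linked at 10000 bp the difference was -1.19 points (-2.26 to -0.121) and at 40000 bp 1.75 points (0.908 to 2.59). Chain peaks with a neighbour under 2000 bp away overlapped C/EBPb in 8.26% of cases (6.77 to 10.1), those at 2000 to 5000 bp in 6.20% (5.12 to 7.49), and those at 10000 to 20000 bp in 10.3% (9.17 to 11.5). Neighbours were alike in 84.1% of pairs, beside 83.7% from the rate alone.

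Over the whole span, most chains held all of these proteins somewhere. A SMARCA5 peak lay in 83.7% of chains, a PU.1 peak in 84.2% and a C/EBPb peak in 57.8%, and the 3 proteins were found together in 1116 chains, 52.6%. In chains of 6 or more summits the shares were 97.7%, 98.9% and 84.2%, as longer spans meet more peaks. No share was taken for stretches of like length around isolated summits. These shares therefore do not set chains apart from other stretches near CTCF. Per length, chains were denser in each protein than the surroundings of isolated summits. Chain spans also hold more CTCF peaks per length, so these densities are not like for like. SMARCA5 covered 16.1% of chain spans, 10.1% of windows of 10 kb either side of isolated summits, and 4.37% of all sequence spanned by the lists. PU.1 summits numbered 0.849 per 10 kb in chains, 0.519 around isolated CTCF summits and 0.264 over all that sequence, and for C/EBPb the densities were 0.372, 0.236 and 0.121.

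Much of the PU.1 and C/EBPb in chains stood away from CTCF, though a smaller part of each than around isolated summits. Counting only peaks that touched no CTCF peak, there were 0.566 PU.1 summits per 10 kb in chains and 0.425 around isolated summits, and 0.254 and 0.194 for C/EBPb. At least 1 such PU.1 peak lay in 67.8% of chains, and no share for stretches of like length around isolated summits was taken. For SMARCA5 peaks that touched no CTCF peak, the densities of peak centres were close, 0.177 and 0.163 per 10 kb. These densities were not tested, and a chain span holds more CTCF peaks per length than a window around 1 isolated summit.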

How the data were processed

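The submitters' processing notes name MACS2 2.2.7.1, STAR 2.7.9a, deepTools 3.5.1 and Picard 2.27.4, and build mm39. For their order, their settings and the definition of a consensus peak, the answer is not given in the sources used here. The deposited lists hold per peak a score (not used), a -log10 q, a summit offset (narrow peaks) and a column taken as fold enrichment, a ratio to local background. A total of 0 columns or peak names give a library, so nothing could be split by genotype or replicate, and the authors' per-peak values were used only within their list.

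Coordinates are printed 1-based. Peaks overlapped when they shared at least 1 bp. Differences come from a linear model over all CTCF summits with classes isolated, pair and chain (statsmodels 0.14.6, Python 3.11.15), with errors robust within 5 Mb blocks. Shares have Wilson 95% intervals, which treat peaks as independent. Peaks are not biological replicates, so intervals describe placement along the genome. Chaining and overlaps were tested on simulated peaks. Members, tests and lists were chosen with earlier results of these data known. The split at 5000 bp, its groups by distance, the comparisons by PU.1 state and strength, and the covariates taken singly were chosen after seeing the data. Chains named are the 5 with most summits and the 3 leading by span, tightness, weakest summit, SMARCA5 peaks and PU.1 peaks. Ties, such as the 6 chains of 11 summits, were settled by longer span for summits and otherwise by higher mean fold enrichment. No mm39 genome or gene annotation was used, so no sequence, motif or gene is given.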

Additional observations from a re-analysis of the deposited data

How the results depend on the processing

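Linking at 10000 bp gave 907 chains with 11.9% of summits, a median span of 12047 bp and a median gap of 5630 bp. Linking at 40000 bp gave 3069 chains with 58.5%, 49648 bp and 14352 bp, and the upper 50% of the CTCF list by fold enrichment gave 366 chains with 9.52%, 26087.5 bp and 11582 bp, as follows from chaining other distances or fewer peaks. On autosomes only there were 2092 chains, and the share, span and gap stayed within their intervals. Merging summits within 500 bp could not alter a chain, as the smallest gap in chains was 551 bp. Chain minus isolated median strength turned from -0.807 in fold enrichment to 10.8 in -log10 q, and to 0.541 without chain summits that had a neighbour under 5000 bp away. The excess of chains with the strongest summit at an end, 5.61 points, was -0.475 by -log10 q, -1.16 in the upper 50% of the list, -0.910 without gaps under 5000 bp and 9.37 at 10000 bp. For SMARCA5, 13 of 16 alternatives kept the direction and call of 8.14 points, from 1.85 with the upper 50% of the SMARCA5 list to 9.86. It was 2.81, with 0 in its interval, in the upper 50% of the CTCF list. For each protein, that setting and the other linking distances used classes built anew. With both strengths as covariates the SMARCA5 difference was -4.14, and -1.88 when close summits were also left out. For PU.1, 9 of 15 kept those of 2.69 points, and the others were 1.31 at 10000 bp, 1.51 in the upper 50% of the CTCF list, 0.336 with the upper 50% of the PU.1 list, 0.768 with -log10 q, -2.41 with both strengths and -0.671 when close summits were also left out. For C/EBPb, whose interval held 0 at 0.494 points, 8 of 15 kept the direction with 0 in the interval. The others were -1.19 at 10000 bp, 1.75 at 40000 bp, 1.49 without close summits, 0.965 with fold enrichment, -0.254 with -log10 q, -1.79 with both and -0.323 when close summits were also left out. Likeness of neighbours in SMARCA5 above the rate, 10.1 points, was 5.85 without neighbours under the same peak, 7.80 without SMARCA5 peaks over 5 kb and 13.0 at 10000 bp. The cause was not tested for these changes. The within-block fit, the single covariates and all settings at 5000 bp were chosen after seeing the data. No paired analysis was possible because peaks carry no library-level values, and leaving out replicates was not run for the same reason. Depth is unknown, so a CTCF site missing from the list cannot be taken as unbound, and missing weak sites would break chains.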

Other observations

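Chains were unevenly spread over the chromosomes, along with CTCF peaks themselves. Chromosome 11 had 18.1 chains per 10 Mb and 41.2% of its CTCF summits in chains, and chromosome 19 had 12.9 and 34.2%. Chromosome X had 1.78 chains per 10 Mb and 16.9% of its summits in chains, and the density of CTCF peaks was 3.55 per Mb there against 16.5 on chromosome 11. Among autosomes, chromosome 13 had the lowest share in chains, 20.4%, and it was also the autosome where chains and isolated peaks were closest in SMARCA5, at 43.1% and 42.6%.

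A total of 145 chains, 6.84%, held no peak of SMARCA5, PU.1 or C/EBPb anywhere in their span. Their median span was 19098 bp, against 27635 bp for the 1116 chains with all 3 proteins, and the median of their mean CTCF fold enrichments was 11.1 against 11.9. A further 140 chains held SMARCA5 without either factor, and these had the shortest median span of the 8 combinations, 15830.5 bp.

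Of the SMARCA5 list, 9.19% of peak centres lay within chain spans, which cover 2.19% of the sequence. For PU.1 and C/EBPb summits the shares were 7.03% and 6.75%. SMARCA5 peaks on chain summits had a median fold enrichment of 2.07, and those on isolated summits 2.09.

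In chains of 3 with SMARCA5 at a single summit, that summit was the first in 165 chains, the middle one in 105 and the last in 132. With SMARCA5 at 2 summits, these were the first and middle in 131 chains, the middle and last in 130 and the outer pair in 98.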
